A study of Mus musculus with 4 samples.

Results

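The genes described here encode the enzymes that add or remove methyl groups on histone lysines, the core of Polycomb repressive complex 2 (PRC2), and the PRDM zinc finger factors. They were taken by symbol from the deposited count lists (the Kdm, Kmt, Setd, Setdb, Ezh, Ehmt, Suv39h, Nsd and Prdm families with *Eed*, *Suz12* and *Dot1l*), and 59 of the 54920 genes listed are described here. Of these, 30 are methyltransferases or PRC2 core genes, 17 are demethylases and 12 are PRDM genes. The expression filter passed 56 of the 59 genes and 23952 genes in all. The study deleted *Cnot3*, which encodes a subunit of the CCR4-NOT deadenylase complex, in mouse germ cells and asked how mRNA levels changed in spermatogonia. RNA was sequenced from ID4-EGFP+ cells, a sorted fraction enriched for spermatogonial stem cells, at postnatal day 8. Control mice were *Cnot3* flox/flox; *Id4*-eGfp without Cre, and *Cnot3*-cKO mice were *Cnot3* flox/flox; *Ddx4*-creER; ID4-EGFP, with 2 libraries in each group, fewer than the replicates stated in the paper. Every mouse received 4-hydroxytamoxifen from day 1 to day 3 after birth, so controls carried the floxed alleles and the drug but no Cre, and an effect of creER itself cannot be told apart from the deletion. *Ddx4*-creER acts in germ cells only, and any somatic cell in the sort keeps *Cnot3*.

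Methylation of histone H3 on lysine 4 (H3K4) and lysine 36 (H3K36) accompanies transcribed genes, and methylation on lysine 9 (H3K9) and lysine 27 (H3K27) accompanies silenced ones. Writers and erasers act in complexes with partner proteins, and PRDM factors are zinc finger proteins with a domain related to the catalytic SET domain, which only some of them use as an enzyme. In the male germ line these marks change as prospermatogonia become spermatogonia and again when spermatogonia differentiate.

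Control libraries held 40957899 and 43378493 counted reads and *Cnot3*-cKO libraries held 22192964 and 28019626. Levels are given as CPM, reads per 1000000 of the library total after TMM scaling, and as CPM per kilobase of exon where genes are compared with each other. *Cnot3* itself had 58.6 and 50.2 CPM in the control libraries and 19.2 and 19.9 CPM in the *Cnot3*-cKO libraries. The groups did not overlap, and its log2 fold change was -1.48 (SE 0.13, edgeR adjusted p = 1.48e-05). Fold changes are *Cnot3*-cKO over control and come from edgeR's quasi-likelihood test over all tested genes, with p adjusted by the Benjamini-Hochberg method. A gene is said to have risen or fallen at an adjusted p under 0.05. The smallest exact two-sided permutation p that 2 libraries against 2 allow is 0.333, so each adjusted p rests on the spread modelled across genes.

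Of the 56 tested genes, 13 fell and 3 rose, against 9.46% of all tested genes lower and 11.1% higher. Lower genes were more frequent among well expressed genes. Of the 10244 tested genes with at least 10 CPM in controls, 19.9% fell and 10.9% rose, and of the 51 genes described here at that level, 13 fell (25.5%) and 3 rose (5.88%). The median log2 fold change of the 56 was -0.17, beside 0.01 for all tested genes and -0.10 for those with at least 10 CPM in controls. With scaling to pan-germ cell genes the 56 genes had a median of -0.04, beside 0.14 for all tested genes. With a correction for exon length and GC content it was -0.27, beside -0.07 for all tested genes. With the fold change required to exceed 2 and the adjusted p to be under 0.01, edgeR called 0 of the 56, beside 4.03% of all tested genes higher and 0.735% lower. At an unadjusted p under 0.05 and the same fold change the count was also 0, both with edgeR and with DESeq2. In 30 of the 56 both *Cnot3*-cKO libraries lay below both controls and in 9 above, where all tested genes gave 28.6% below and 30.5% above. Among genes with at least 10 CPM in controls, 29 of 51 lay below and 8 above, beside 44.8% and 24.2% of all genes at that level. The lowest log2 fold change was -0.74 (*Setd7*) and the highest 0.54 (*Setd1b*, not past the test).

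Differences between roles were not tested. Of the 30 methyltransferase and PRC2 genes, 11 fell and 1 rose, with a median log2 fold change of -0.18, and 6 lower and 2 higher with a median of -0.055 when scaled to pan-germ cell genes. Of the 17 demethylases, 1 fell and 2 rose, with a median of -0.07, and 0.055 when scaled to pan-germ cell genes. That scaling gave 0 lower and 5 higher demethylases, the length and GC correction 5 lower and 0 higher. Of the 9 tested PRDM genes, 1 fell and 0 rose, with a median of -0.25, and -0.12 when scaled to pan-germ cell genes. Scaling to pan-germ cell genes, which moved the median of all tested genes from 0.01 to 0.14, gave 7 lower and 7 higher of the 56, beside 4.58% and 14.3% of all tested genes. A correction for exon length and GC content gave 22 lower and 0 higher, beside 14% and 9.75%. *Ehmt1*, *Ehmt2*, *Kmt2b*, *Nsd2*, *Prdm4*, *Setd7* and *Suv39h2* were lower at an adjusted p under 0.05 in the fit and in all 11 alternatives, and 0 of the 3 genes that rose passed in every alternative. A further 13 genes passed as lower and 5 as higher in 1 to 5 of the alternatives only.

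**Figure D1:**
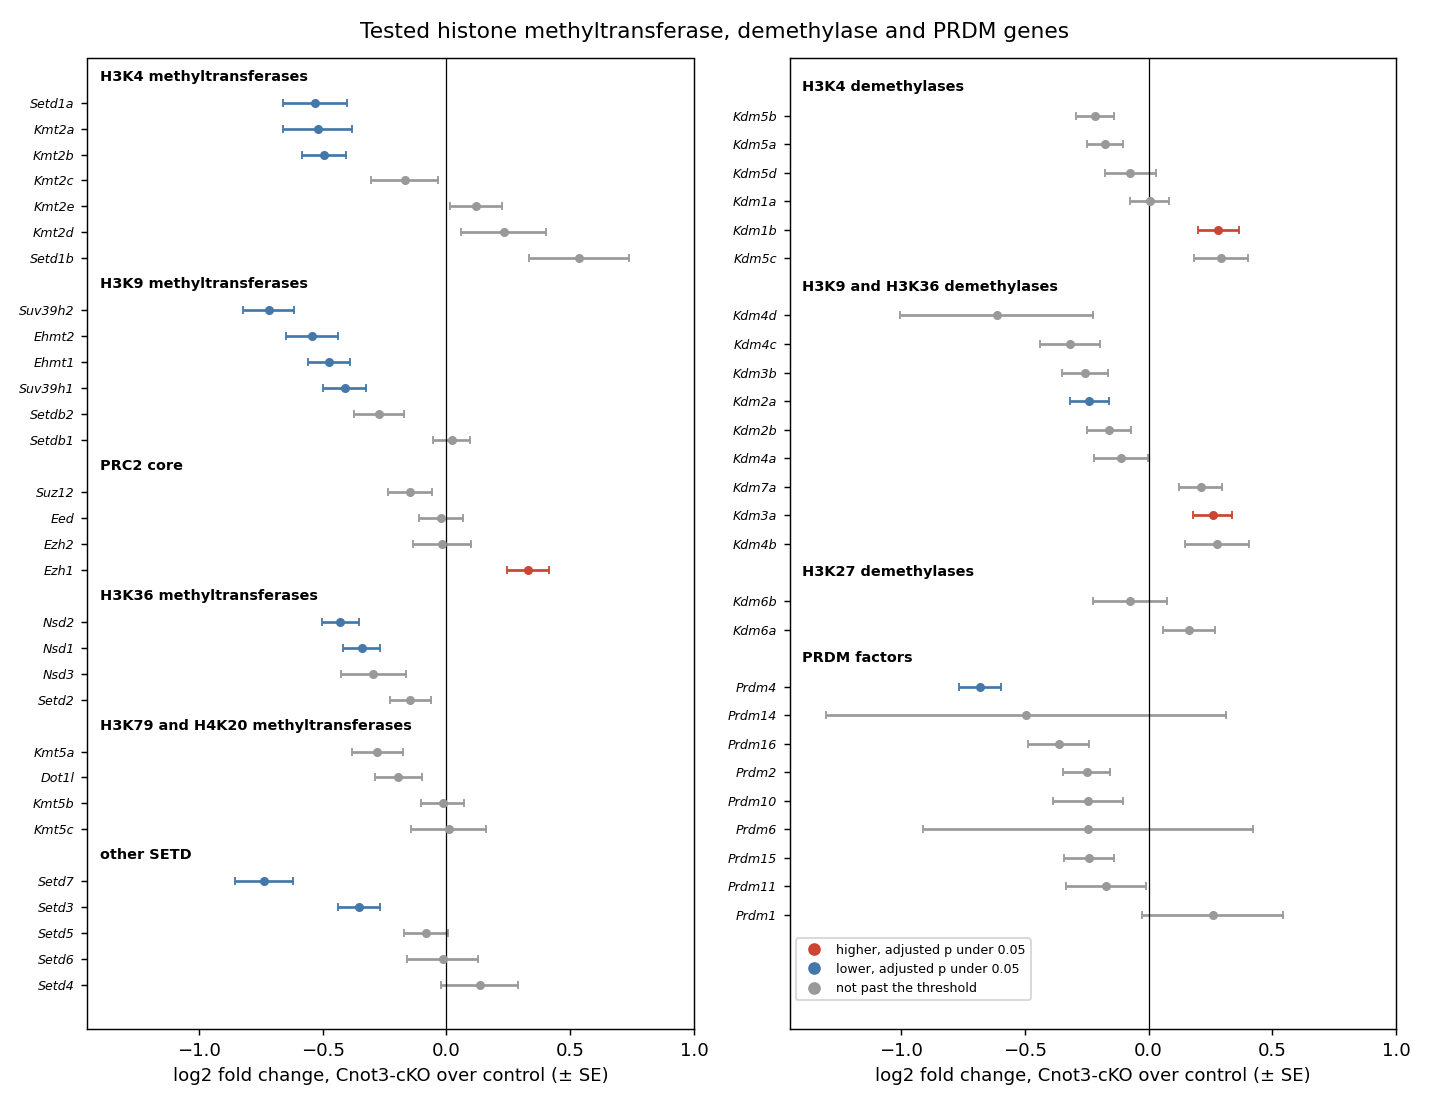
Log2 fold change of each tested gene, *Cnot3*-cKO over control, by role. Points are estimates from 2 libraries per group, bars are SE, and colour marks genes with an adjusted p under 0.05. The 13 genes that fell lie between -0.74 (*Setd7*) and -0.24 (*Kdm2a*), and the 3 that rose between 0.26 (*Kdm3a*) and 0.33 (*Ezh1*).

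Markers of other cells moved between the same libraries. All 12 Sertoli cell genes rose (median log2 fold change 1.96), and their summed level was 276 and 264 CPM for controls and 917 and 950 CPM for *Cnot3*-cKO, led by *Clu*. All 5 tested Leydig cell genes rose, with a sum of 367 and 322 CPM for controls and 830 and 895 CPM for *Cnot3*-cKO, led by *Hsd3b1*, while *Insl3* stayed at or under 3 reads in every library. Of 9 macrophage genes 7 rose, with a sum of 206 and 131 CPM for controls and 461 and 379 CPM for *Cnot3*-cKO, led by *Mrc1*. Peritubular myoid genes (1 of 6 rose) summed to 13.9 and 16.5 CPM for controls and 20.4 and 25.6 CPM for *Cnot3*-cKO, led by *Acta2*, and endothelial genes (2 of 7 tested rose) to 25.9 and 23.6 CPM for controls and 37.7 and 43.9 CPM for *Cnot3*-cKO, led by *Tek*. The pan-germ cell genes stayed far above these lists, with a sum of 6280 and 6620 CPM for controls and 5800 and 5970 CPM for *Cnot3*-cKO, led by *Dazl*, of which 2 rose and 2 fell out of 11.

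Markers of germ cell stages differed as well. Of 9 stem cell genes 5 rose, *Id4* and *Gfra1* among them, and *Zbtb16* fell, with a sum of 928 and 797 CPM for controls and 876 and 886 CPM for *Cnot3*-cKO, led by *Zbtb16*. Of 7 progenitor genes 6 fell, with a sum of 558 and 560 CPM for controls and 279 and 272 CPM for *Cnot3*-cKO, led by *Lin28a*. Of 6 differentiation genes 5 fell, with a sum of 686 and 850 CPM for controls and 401 and 454 CPM for *Cnot3*-cKO, led by *Kit*. The part of these shifts in the values of the 59 genes described here was not tested, and in bulk RNA fewer cells of a type and less RNA per cell cannot be told apart.

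**Figure D2:**
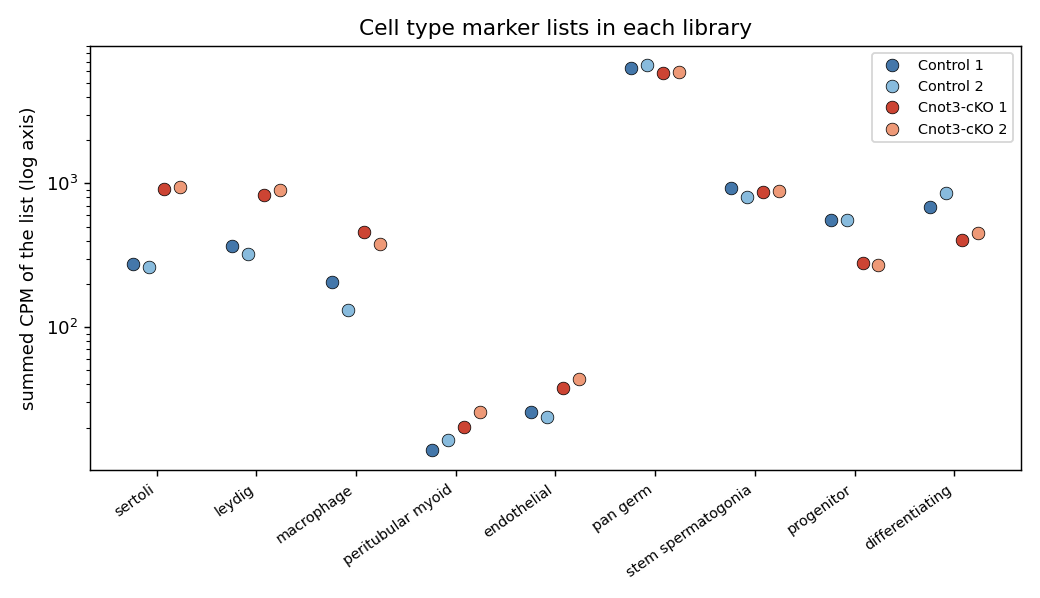
Summed CPM of each marker list (log axis), with 1 point per library. Sertoli, Leydig, macrophage, peritubular myoid and endothelial lists are higher in both *Cnot3*-cKO libraries than in both controls. Progenitor, differentiating and pan-germ cell lists are lower in both, the last by the smallest margin, and the stem cell list overlaps.

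Of the 6 H3K9 methyltransferases 4 fell and none rose, beside 19.9% and 10.9% of genes with at least 10 CPM in controls. *Ehmt2* (G9a) and *Ehmt1* (GLP) encode the partners of a heterodimer that makes H3K9me1 and H3K9me2, and *Ehmt2* had the highest level per kilobase of all 59 genes in controls (79.4 CPM per kilobase). It had 383 and 489 CPM in the control libraries and 293 and 305 CPM in the *Cnot3*-cKO libraries. Both *Cnot3*-cKO libraries were below both controls, which differed from each other by 1.27-fold, and the log2 fold change was -0.54 (SE 0.10, edgeR adjusted p = 0.00314). *Ehmt1* had 193 and 190 CPM in the control libraries and 142 and 134 CPM in the *Cnot3*-cKO libraries. Its controls were close together and the *Cnot3*-cKO libraries lay below them, with a log2 fold change of -0.47 (SE 0.08, edgeR adjusted p = 0.0019).

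*Suv39h1* and *Suv39h2* encode the enzymes that place H3K9me3 at pericentromeric heterochromatin. *Suv39h2* (chr2:3455815-3475031 on GRCm38) had 103 and 122 CPM in the control libraries and 68.9 and 67.3 CPM in the *Cnot3*-cKO libraries. This was among the largest decreases here, without overlap of the groups, at a log2 fold change of -0.72 (SE 0.10, edgeR adjusted p = 0.000527). *Suv39h1* had 134 and 131 CPM in the control libraries and 102 and 97.1 CPM in the *Cnot3*-cKO libraries. It also fell without overlap, by less, with a log2 fold change of -0.41 (SE 0.09, edgeR adjusted p = 0.00596). The call on *Suv39h1* was lost without *Cnot3*-cKO replicate 2 (log2 fold change -0.38) and with scaling to pan-germ cell genes (edgeR adjusted p = 0.0601). Exons of other genes cover 14.6% of the exon bases of *Suv39h1* and 9.98% of those of *Suv39h2*, all on the opposite strand, and how many reads this touches was not tested. *Setdb2* (-0.27) did not pass the test, though it passed as lower in 4 of the 11 alternatives. *Setdb1*, which silences endogenous retroviruses through KRAB zinc finger proteins, had 425 and 409 CPM against 429 and 418 CPM, with overlapping groups and a log2 fold change of 0.02 (95% interval -0.14 to 0.19).

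Among the 7 H3K4 methyltransferases 3 fell and 0 rose. Beside this, 9.46% of all tested genes fell and 11.1% rose, and 19.9% and 10.9% of those with at least 10 CPM in controls. *Kmt2a* and *Kmt2b* encode the menin-bound enzymes MLL1 and MLL2, and *Kmt2b* is known to act in spermatogonia. *Kmt2b* had 183 and 169 CPM in the control libraries and 131 and 120 CPM in the *Cnot3*-cKO libraries. The groups were apart, with a log2 fold change of -0.49 (SE 0.09, edgeR adjusted p = 0.00228). *Kmt2a* had 308 and 212 CPM in the control libraries and 191 and 171 CPM in the *Cnot3*-cKO libraries. Its controls differed by 1.45-fold, more than the lower control differed from the *Cnot3*-cKO libraries, and its log2 fold change was -0.52 (SE 0.14, edgeR adjusted p = 0.0191). The *Kmt2a* value was -0.24 (edgeR adjusted p = 0.0245) without control replicate 1 and -0.78 (edgeR adjusted p = 6.54e-15) without control replicate 2, and scaling to pan-germ cell genes ended the call (edgeR adjusted p = 0.111, from 6.54e-15 to 0.111 over its alternatives).

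*Setd1a* and *Setd1b* encode the enzymes that make most H3K4me3. *Setd1a* had 70.3 and 54.2 CPM in the control libraries and 43.2 and 42.9 CPM in the *Cnot3*-cKO libraries. The groups did not overlap and the log2 fold change was -0.53 (SE 0.13, edgeR adjusted p = 0.0119), which missed the threshold with scaling to pan-germ cell genes (edgeR adjusted p = 0.068). The controls of *Setd1a* differed by 1.3-fold, and dropping control replicate 1 gave a log2 fold change of -0.35, dropping control replicate 2 -0.72. Exons of other genes cover 52.3% of its exon bases, most on the same strand, so its count is uncertain by an unknown number of reads. *Setd1b* had a log2 fold change of 0.54 (SE 0.20, edgeR adjusted p = 0.0814), and passed only with pan-germ scaling and without control replicate 1 (log2 fold change 0.69), while dropping control replicate 2 gave 0.37. The ratio of *Setd1b* to *Setd1a* per kilobase was 0.066 and 0.0683 for controls and 0.147 and 0.134 for *Cnot3*-cKO. *Kmt2c*, which with *Kmt2d* makes H3K4me1 at enhancers and had the highest mean control level per kilobase of the H3K4 methyltransferases (in control replicate 2 *Kmt2b* was higher, 17.6 against 16.9 CPM per kilobase), had 504 and 343 CPM in the control libraries and 384 and 370 CPM in the *Cnot3*-cKO libraries. The *Cnot3*-cKO libraries lay between the controls, and control replicate 1 decided the sign. The log2 fold change was -0.17 (SE 0.14, edgeR adjusted p = 0.435) with all libraries, 0.12 without control replicate 1 and -0.43 without control replicate 2. *Kmt2d* (0.23) and *Kmt2e* (0.12) did not pass the test. *Kmt2d* had 86.3 and 69.4 CPM in the control libraries and 112 and 71.2 CPM in the *Cnot3*-cKO libraries, with overlapping groups. It passed as higher in 2 of the 11 alternatives, each with a library left out.

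In PRC2, which places H3K27me3, only the catalytic subunit *Ezh1* passed the test. *Ezh1* (chr11:101191115-101226463) had 165 and 160 CPM in the control libraries and 213 and 196 CPM in the *Cnot3*-cKO libraries. It was higher in both *Cnot3*-cKO libraries, with a log2 fold change of 0.33 (SE 0.09, edgeR adjusted p = 0.0158). The rise was not past the threshold with the length and GC correction, 0.27 (edgeR adjusted p = 0.0576), or without *Cnot3*-cKO replicate 1, 0.26. *Suz12*, the subunit with the highest level per kilobase, had 242 and 261 CPM in the control libraries and 215 and 240 CPM in the *Cnot3*-cKO libraries. Both *Cnot3*-cKO libraries were below both controls by a small margin, and its log2 fold change was -0.15 (SE 0.09, edgeR adjusted p = 0.282). It was -0.22 without control replicate 1, past the threshold, and -0.233 to -0.079 over the libraries left out. The other catalytic subunit, *Ezh2*, had a log2 fold change of -0.02 (95% interval -0.27 to 0.24) and the scaffold gene *Eed* -0.02 (-0.21 to 0.17), and the sign of both differed between alternatives. Per kilobase, the ratio of *Ezh1* to *Ezh2* was 2.92 and 2.91 for controls and 3.55 and 3.9 for *Cnot3*-cKO, without overlap.

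The 4 genes for H3K36 methylation were lower in both *Cnot3*-cKO libraries, as were 44.8% of genes with at least 10 CPM in controls, and 2 of the 4 fell, beside 19.9% of genes at that level. *Nsd1* and *Nsd2* make H3K36me2. *Nsd1*, the highest of the 4 per kilobase, had 889 and 830 CPM in the control libraries and 674 and 682 CPM in the *Cnot3*-cKO libraries. It fell with a log2 fold change of -0.34 (SE 0.07, edgeR adjusted p = 0.00627). The call was lost without either *Cnot3*-cKO library, where the log2 fold change was -0.34 and -0.35. It was also lost with pan-germ scaling (log2 fold change -0.21, edgeR adjusted p = 0.117). *Nsd2* had 570 and 572 CPM in the control libraries and 433 and 415 CPM in the *Cnot3*-cKO libraries. Its controls were nearly equal and both *Cnot3*-cKO libraries were lower, with a log2 fold change of -0.43 (SE 0.07, edgeR adjusted p = 0.00174). *Nsd3* (-0.29) and *Setd2* (-0.15), the H3K36me3 enzyme, did not pass, though they passed as lower in 3 and 1 of the 11 alternatives.

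None of the 4 genes for H3K79 and H4K20 methylation passed, with log2 fold changes from -0.28 to 0.01. *Kmt5a*, which makes H4K20me1 and was the highest of them per kilobase, had 62.5 and 66.4 CPM in the control libraries and 53.5 and 52.7 CPM in the *Cnot3*-cKO libraries. These did not overlap, but the difference was under the threshold at a log2 fold change of -0.28 (SE 0.10, edgeR adjusted p = 0.0755). *Kmt5a* passed without control replicate 1 (log2 fold change -0.34) and with the length and GC correction (edgeR adjusted p = 0.0295). With pan-germ scaling its edgeR adjusted p was 0.365. *Dot1l*, the H3K79 enzyme, had -0.20.

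Of the 5 other SETD genes 2 fell and 0 rose, beside 19.9% and 10.9% of genes with at least 10 CPM in controls. *Setd7* (chr3:51515319-51560879) encodes a lysine methyltransferase with histone and many non-histone substrates, and had 59.7 and 53.6 CPM in the control libraries and 35.6 and 32.4 CPM in the *Cnot3*-cKO libraries. Its log2 fold change of -0.74 (SE 0.12, edgeR adjusted p = 0.000921) was the lowest of the 56 genes in the fit, though *Suv39h2* was lower in 3 of the 11 alternatives. *Setd3*, which methylates a histidine of actin rather than a histone, had 202 and 217 CPM in the control libraries and 168 and 160 CPM in the *Cnot3*-cKO libraries. It fell with a log2 fold change of -0.35 (SE 0.09, edgeR adjusted p = 0.0108). The call was lost without *Cnot3*-cKO replicate 2, where the log2 fold change was -0.32. It was also lost with pan-germ scaling (log2 fold change -0.22, edgeR adjusted p = 0.108). *Setd4*, *Setd5* and *Setd6* ranged from -0.08 to 0.13.

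**Figure D3:**
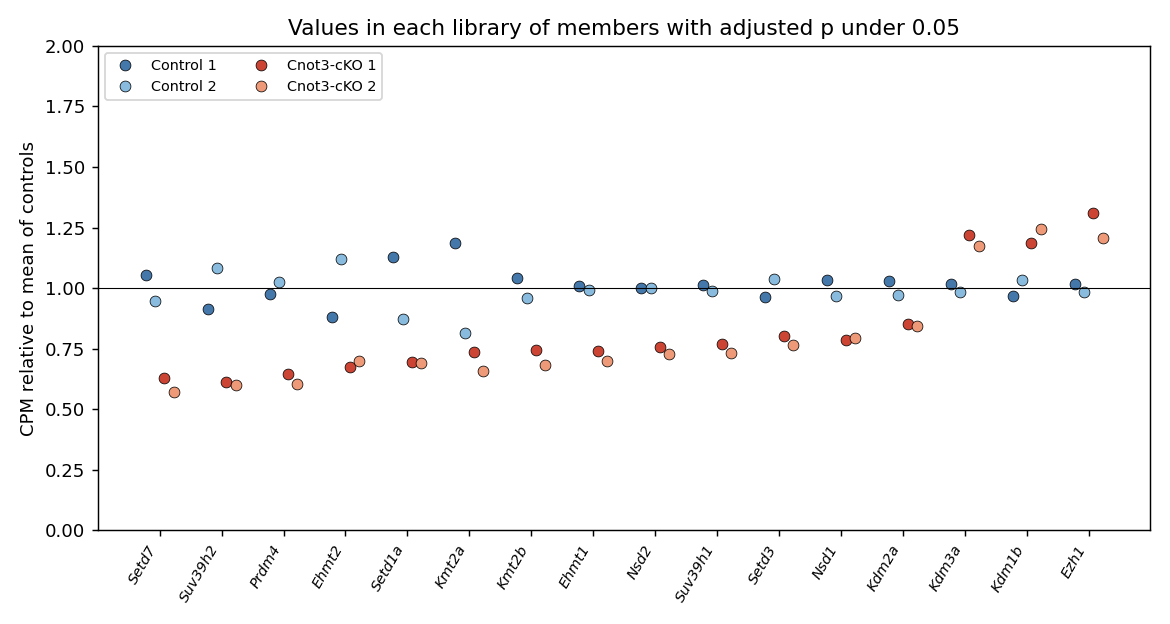
CPM of each gene with an adjusted p under 0.05, divided by the mean of its 2 controls, with 1 point per library. In all 16 genes both *Cnot3*-cKO libraries lie on the same side of both controls, and the controls of *Kmt2a* stand furthest apart, by 1.45-fold.

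Of the 6 H3K4 demethylases 1 rose and 0 fell, beside 10.9% and 19.9% of genes with at least 10 CPM in controls. *Kdm1a* (LSD1), which removes H3K4me1 and H3K4me2 and was the highest demethylase gene per kilobase (68.2 CPM per kilobase in controls), had 346 and 360 CPM in the control libraries and 365 and 344 CPM in the *Cnot3*-cKO libraries. The groups overlapped, with a log2 fold change of 0.01 (95% interval -0.17 to 0.18) whose sign differed between alternatives. Its relative *Kdm1b* (LSD2), known for its role at imprinted loci in oocytes, had 180 and 192 CPM in the control libraries and 221 and 231 CPM in the *Cnot3*-cKO libraries. Both *Cnot3*-cKO libraries were above both controls, with a log2 fold change of 0.28 (SE 0.08, edgeR adjusted p = 0.031). The rise in *Kdm1b* was not past the threshold with the length and GC correction (log2 fold change 0.15, edgeR adjusted p = 0.319). *Kdm1b* also missed the threshold without either *Cnot3*-cKO library, where its log2 fold change was 0.30 and 0.24. Exons of *Dek* on the opposite strand cover 9.19% of its exon bases. The ratio of *Kdm1b* to *Kdm1a* per kilobase was 0.489 and 0.503 for controls and 0.57 and 0.633 for *Cnot3*-cKO.

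None of the 4 KDM5 genes, which encode H3K4me3 demethylases, passed. *Kdm5a* (-0.17) and *Kdm5b* (-0.22) were lower in both *Cnot3*-cKO libraries and passed as lower in 4 and 5 of the 11 alternatives, and X-linked *Kdm5c* (0.29) was higher in both. *Kdm5c* passed with library size scaling (edgeR adjusted p = 0.0352) and with pan-germ scaling (edgeR adjusted p = 0.0214), but not with the length and GC correction (edgeR adjusted p = 0.179). Its Y-linked relative *Kdm5d* had -0.07, and the *Kdm5c* to *Kdm5d* ratio per kilobase was 1.19 and 1.26 for controls and 1.54 and 1.63 for *Cnot3*-cKO. The 2 genes share sequence, and how reads matching both were counted is not stated.

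Among the 9 demethylases of H3K9 and H3K36, *Kdm3a* rose and *Kdm2a* fell, beside 11.1% higher and 9.46% lower of all tested genes. *Kdm3a*, which removes H3K9me1 and H3K9me2 and is needed in spermatids, had 278 and 268 CPM in the control libraries and 333 and 320 CPM in the *Cnot3*-cKO libraries. It was higher in both *Cnot3*-cKO libraries, with a log2 fold change of 0.26 (SE 0.08, edgeR adjusted p = 0.0344). The rise was not past the threshold with the length and GC correction (log2 fold change 0.165, edgeR adjusted p = 0.237). *Kdm3a* also missed the threshold without either *Cnot3*-cKO library, where its log2 fold change was 0.22 and 0.28. *Kdm2a*, an H3K36me2 demethylase that binds CpG islands, had 353 and 332 CPM in the control libraries and 292 and 289 CPM in the *Cnot3*-cKO libraries. It was lower in both *Cnot3*-cKO libraries and just inside the threshold, with a log2 fold change of -0.24 (SE 0.08, edgeR adjusted p = 0.0493). The call was lost without either *Cnot3*-cKO library, where the log2 fold change was -0.26 and -0.24. It was also lost with library size scaling (log2 fold change -0.17, edgeR adjusted p = 0.151) and with pan-germ scaling (-0.11, edgeR adjusted p = 0.457). The other 7 ranged from -0.61 (*Kdm4d*, at 2 CPM in controls) to 0.28 (*Kdm4b*). *Kdm3b* stood at -0.26, passing as lower in 5 of the 11 alternatives, with exons of another gene over 24.6% of its exon bases, and the ratio of *Kdm3a* to *Kdm3b* per kilobase was 2.44 and 2.56 for controls and 3.88 and 3.3 for *Cnot3*-cKO.

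The 2 H3K27 demethylases did not pass. *Kdm6a* (UTX), the higher per kilobase, had 62.9 and 56.6 CPM in the control libraries and 65.2 and 68.5 CPM in the *Cnot3*-cKO libraries. The *Cnot3*-cKO libraries were slightly above the controls, with a log2 fold change of 0.16 (SE 0.10, edgeR adjusted p = 0.319), and 0.08 without control replicate 2 and 0.05 with the length and GC correction (edgeR adjusted p from 0.0881 to 0.794 over its alternatives). *Kdm6b* had -0.07.

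**Figure D4:**
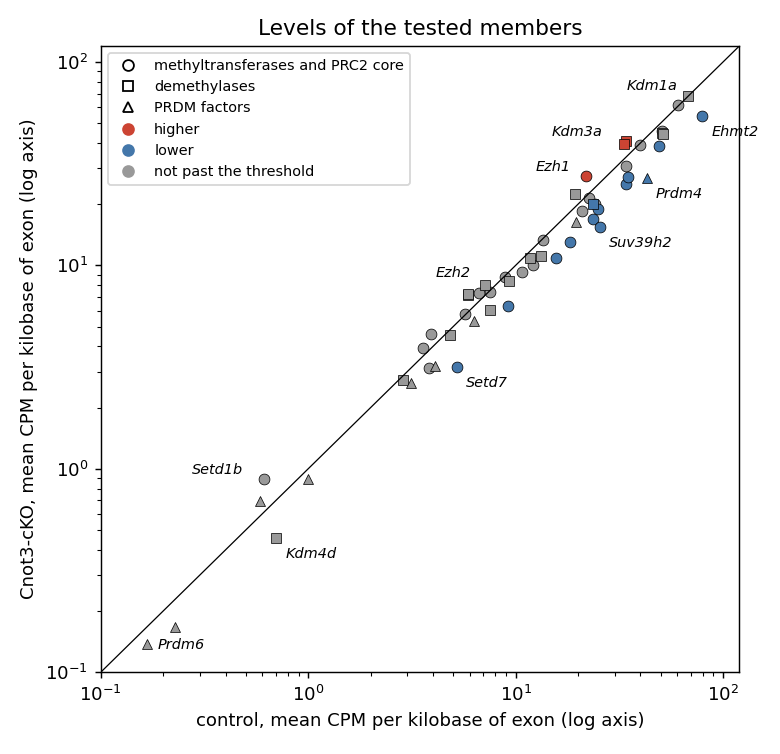
Mean CPM per kilobase of exon in *Cnot3*-cKO against control cells for the 56 tested genes (both axes log). Symbols mark the gene family, colour marks an adjusted p under 0.05, and the line marks equal levels. Control levels run from 0.167 (*Prdm6*) to 79.4 (*Ehmt2*) CPM per kilobase.

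Among the 9 tested PRDM genes only *Prdm4* fell and 0 rose, beside 9.46% and 11.1% of all tested genes. With DESeq2, without the expression filter and with the length and GC correction, 3 PRDM genes were lower. *Prdm4*, a zinc finger factor that binds the arginine methyltransferase PRMT5, was the highest of them per kilobase (42.9 CPM per kilobase in controls) and had 206 and 216 CPM in the control libraries and 136 and 127 CPM in the *Cnot3*-cKO libraries. It fell without overlap, with a log2 fold change of -0.68 (SE 0.09, edgeR adjusted p = 0.000202), the smallest adjusted p of the 56 genes. *Prdm16* lay just outside the threshold, with a log2 fold change of -0.36 (SE 0.12, edgeR adjusted p = 0.0541), and passed as lower in 5 of the 11 alternatives, DESeq2 among them. *Prdm2* (-0.25) passed as lower in 4.

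The germ cell specification factors *Prdm1* and *Prdm14* were low, at 3.26 and 0.584 CPM in controls, and neither passed the test. *Prdm8*, *Prdm12* and *Prdm13* were not tested. *Prdm8* had 2 reads in *Cnot3*-cKO replicate 1 and 0 elsewhere, *Prdm13* had 2 reads in control replicate 2 and 0 elsewhere, and *Prdm12* had from 3 to 10 reads per library. A floor of 3 reads stood for 0.071 to 0.132 CPM. The other 5 tested PRDM genes ranged from -0.25 (*Prdm2*) to -0.17 (*Prdm11*).

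The ratio of related genes does not depend on how libraries are scaled. Of 8 such pairs, 6 had ratios that did not overlap between groups. Levels of single genes did not overlap in 59.1% of all tested genes, and no such share was computed for ratios of other pairs. The exact two-sided permutation p was 0.333, the smallest possible, for each of these 6 (0.444 adjusted over the 8). Besides the 5 ratios above, that of *Suv39h2* to *Suv39h1* per kilobase was 0.917 and 1.11 for controls and 0.808 and 0.828 for *Cnot3*-cKO. The ratios of *Ehmt2* to *Ehmt1* and of *Kmt2b* to *Kmt2a* overlapped between groups.

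Partner genes and further enzymes outside the rule for the symbols were followed in lists, 65 of 66 tested, of which 13 fell and 5 rose (20% and 7.69%, where all tested genes gave 9.46% and 11.1%). Of the 56 with at least 10 CPM in controls, 12 fell and 3 rose (21.4% and 5.36%, where all genes at that level gave 19.9% and 10.9%). In the LSD1 and CoREST list, with PRDM partners, 2 of 9 rose and 3 fell. The CoREST scaffold genes, which bridge LSD1 to histone deacetylases, moved apart. *Rcor3* had 6.79 and 4.51 CPM in the control libraries and 17.3 and 12.8 CPM in the *Cnot3*-cKO libraries. This was a rise from a low level, with a log2 fold change of 1.41 (SE 0.24, edgeR adjusted p = 0.00138). *Rcor1* had 16.3 and 13.3 CPM in the control libraries and 31.7 and 25.2 CPM in the *Cnot3*-cKO libraries, likewise higher in both, with a log2 fold change of 0.94 (SE 0.17, edgeR adjusted p = 0.00191). *Rcor2* had 116 and 138 CPM in the control libraries and 83.7 and 92 CPM in the *Cnot3*-cKO libraries. It was lower in both *Cnot3*-cKO libraries, with a log2 fold change of -0.54 (SE 0.10, edgeR adjusted p = 0.00366). The deacetylase gene *Hdac1* (-0.44) and *Zmym2* (-0.25) also fell.

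Of the 8 accessory genes of PRC2, 3 fell, namely *Epop* (-0.94), *Rbbp4* (-0.33) and *Jarid2* (-0.28), and 0 rose. Beside this list and the next ones, 9.46% of all tested genes fell and 11.1% rose, and 19.9% and 10.9% of those with at least 10 CPM in controls. Of 12 tested partners of the H3K4 enzymes 2 fell, *Paxip1* (-0.43) and *Wdr5* (-0.28). Among 12 readers and partners of H3K9 methylation, *Cbx1* (HP1 beta, -0.55) and *Morc2a* (-0.35) fell and *Mphosph8*, a subunit of the HUSH silencing complex, rose (0.40). Among 24 other methyltransferases and demethylases, *Prmt1* (-0.62), *Smyd2* (-0.56) and *Carm1* (-0.40) fell, and *Prmt5* (0.39), the arginine methyltransferase bound by PRDM4, and *Phf2* (0.73), an H3K9 demethylase, rose. Of these 18 calls, those on *Cbx1*, *Prmt1*, *Rcor1*, *Rcor2* and *Rcor3* held in all alternatives. The calls lost were *Carm1*, *Epop*, *Hdac1*, *Jarid2*, *Morc2a*, *Rbbp4*, *Wdr5* and *Zmym2* with pan-germ scaling, *Carm1*, *Jarid2*, *Wdr5* and *Zmym2* with library size scaling, *Mphosph8* with the length and GC correction, *Carm1* without control replicate 1, *Carm1*, *Epop*, *Jarid2*, *Morc2a*, *Prmt5*, *Wdr5* and *Zmym2* without *Cnot3*-cKO replicate 1 and *Carm1*, *Hdac1*, *Jarid2*, *Morc2a*, *Paxip1*, *Phf2*, *Rbbp4*, *Smyd2*, *Wdr5* and *Zmym2* without *Cnot3*-cKO replicate 2. Some of these kept their fold change when *Cnot3*-cKO replicate 1 or 2 was dropped while the SE grew, as in *Morc2a* (-0.36 and -0.34, SE 0.14 and 0.14, against -0.35 and SE 0.08), *Wdr5* (-0.28 and -0.29) and *Zmym2* (-0.28 and -0.24). *Kdm8*, which the rule for the symbols does not match, had -0.02.

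**Figure D5:**
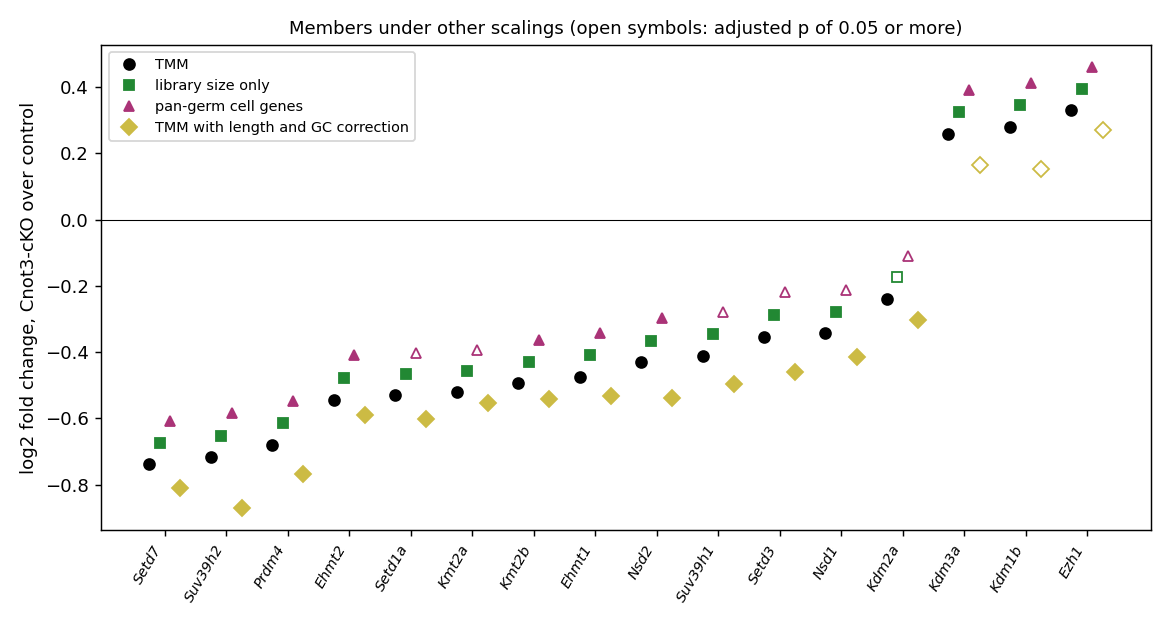
Log2 fold change of the 16 genes with an adjusted p under 0.05 under TMM scaling and under 3 alternatives. Filled symbols have an adjusted p under 0.05 and open ones do not. Under scaling to pan-germ cell genes 6 of the 13 lower genes are open, and with the length and GC correction the 3 higher genes are open, while the sign stays the same in each gene.

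Promoters are shown for the 2 genes with the smallest adjusted p that fell and the 2 that rose, out of those with a single entry in the RefSeq promoter table (GRCm38.p6), so that the sequence around their starts can be set beside their opposite changes. The table held 45 of the 59 genes, 34 of them once. Each sequence runs 5′ to 3′ from 250 bases before to 50 bases after the start, and capitals mark GGGCGG or its reverse complement CCGCCC. *Suv39h2* lies at chr2:3474937-3475236, reverse strand, *Setd7* at chr3:51560774-51561073, reverse strand, *Ezh1* at chr11:101226414-101226713, reverse strand and *Kdm1b* at chr13:47043249-47043548, forward strand.
Suv39h2: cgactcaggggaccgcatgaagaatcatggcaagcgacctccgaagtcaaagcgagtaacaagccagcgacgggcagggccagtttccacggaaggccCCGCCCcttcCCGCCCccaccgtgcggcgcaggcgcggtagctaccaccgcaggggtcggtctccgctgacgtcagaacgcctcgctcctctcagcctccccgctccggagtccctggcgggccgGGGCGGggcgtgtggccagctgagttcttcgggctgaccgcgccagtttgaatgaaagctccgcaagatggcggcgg
Setd7: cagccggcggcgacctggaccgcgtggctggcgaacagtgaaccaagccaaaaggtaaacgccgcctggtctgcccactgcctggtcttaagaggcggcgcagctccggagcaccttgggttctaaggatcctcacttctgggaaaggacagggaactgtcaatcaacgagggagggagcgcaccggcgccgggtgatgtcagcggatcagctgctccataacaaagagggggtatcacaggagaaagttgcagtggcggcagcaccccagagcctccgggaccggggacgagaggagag
Ezh1: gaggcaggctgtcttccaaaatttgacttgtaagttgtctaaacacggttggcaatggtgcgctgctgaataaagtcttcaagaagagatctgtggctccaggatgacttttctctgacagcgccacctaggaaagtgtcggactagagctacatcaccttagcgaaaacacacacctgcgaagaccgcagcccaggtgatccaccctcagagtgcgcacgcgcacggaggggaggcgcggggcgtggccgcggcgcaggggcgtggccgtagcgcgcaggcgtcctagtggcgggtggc
Kdm1b: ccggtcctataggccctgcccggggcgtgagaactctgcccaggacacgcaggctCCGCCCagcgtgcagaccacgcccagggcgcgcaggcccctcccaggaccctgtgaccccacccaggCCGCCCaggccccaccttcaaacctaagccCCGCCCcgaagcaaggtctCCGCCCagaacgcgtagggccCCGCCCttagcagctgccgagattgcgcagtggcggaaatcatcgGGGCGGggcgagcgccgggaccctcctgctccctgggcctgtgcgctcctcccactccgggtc

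GGGCGG was found 3 times in *Suv39h2* and 6 times in *Kdm1b*, and not in *Setd7* or *Ezh1*. Among single-entry genes GGGCGG was in 3 of 5 that fell and 1 of 2 that rose. On either strand it occurred in 17 of the 34 genes with a single entry and in 35.7% of the 32851 promoters of this length. CCAAT (reverse ATTGG) occurred in 16 of the 34 and 37.4% of all, TGACG (reverse CGTCA) in 8 and 20.8%, and CGGAAG (reverse CTTCCG) in 11 and 16.9%. The median GC content was 62.7% in the 34 and 52.7% in all promoters. Of the 5 single-entry genes that fell and the 2 that rose, CCAAT was in 0 and 0, TGACG in 1 and 0, and CGGAAG in 1 and 0.

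CCR4-NOT is recruited to mRNAs by RNA-binding proteins, Pumilio proteins among them, which recognise TGTA, any base, then ATA in 3′ UTRs. In GENCODE M21 transcripts this element was present in the 3′ UTR of 7 of the 13 genes that fell and 0 of the 3 that rose, beside 24 of the 59 and 23.7% of 15793 tested genes with a model. The 3′ UTRs differed in length, with medians of 2022 bases in the genes that fell, 1823 in those that rose and 952 in all, and a longer UTR holds any element more often. An AU-rich element, TATTTAT, was in 5 of the 13, 1 of the 3, 27 of the 59 and 27% of all. A match describes letters in a transcript, and whether a protein binds there was not tested. The paper proposes that CNOT3 promotes the decay of mRNAs, while the 7 genes were lower in *Cnot3*-cKO. In the 3′ UTRs of its own differential genes the paper reports no enriched NANOS2, DND1 or de novo motif. Windows of 30 bases on the transcribed strand are shown for the first element listed in each of the 7 genes that fell, *Setd7* (chr3:51520306-51520335), *Kmt2a* (chr9:44806550-44806579), *Kmt2b* (chr7:30568952-30568981), *Setd1a* (chr7:127800041-127800070), *Suv39h1* (chrX:8061542-8061571), *Nsd1* (chr13:55318267-55318296), *Kdm2a* (chr19:4316475-4316504), with the element in capitals.
Setd7: tacacattaatTGTACATAacctagtacag
Kmt2a: aggttttataaTGTAAATAtattttgtata
Kmt2b: gggacccaggaTGTAGATAttgtacaaagg
Setd1a: ttgggctggatTGTACATAatgttaatagt
Suv39h1: tgtgtgtatttTGTATATAtgtttcctgcc
Nsd1: ctgtaattcttTGTATATAgaaaaaaatta
Kdm2a: gtgggaaatatTGTAAATAtatattttttg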

How the data were processed

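The authors sequenced ribosomal RNA-depleted, stranded libraries of sorted cells, mapped them with STAR (mm10) and assigned reads to GENCODE M24 genes using featureCounts. The deposited values are raw counts per gene symbol, not normalized. The strand setting and the handling of multi-mapping reads are not given, so genes with overlapping or similar copies are uncertain. The labels do not tie libraries to animals, and p-values rest on the spread between these libraries as modelled across genes.

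Counts were analysed in edgeR 4.0.16 (R 4.3.3) with TMM scaling, filterByExpr, glmQLFit and glmQLFTest, without covariates, over all genes, with Benjamini-Hochberg adjustment. The procedure was tested on simulated data, where it recovered 12 of 67 genes changed by 1.5-fold and 55 of 67 changed by 2-fold. The simulation changed far fewer genes than the fit called here and gave every gene the same fixed dispersion. Its recovery therefore does not give the share of real changes found in these data. The fitted biological coefficient of variation was 0.145. Exon lengths, coordinates and 3′ UTRs (of the longest principal transcript) were taken from GENCODE M21 (GRCm38, that is mm10). Figures used matplotlib 3.10.9 under Python 3.11.15. Values in every library are given for each gene with an adjusted p under 0.05 and for the gene of each role with the highest control level per kilobase, and for the CoREST genes and *Setdb1*, chosen after their values were seen. The members and lists were chosen with earlier results of these data known. Alternatives were DESeq2's size factors (RLE), library size only, scaling to pan-germ cell genes, no expression filter, DESeq2 1.42.0, a replicate block, a length and GC correction (mgcv 1.9.3) and leaving out each library. The single-cell data of the study and further PRDM genes are not analysed here.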

Additional observations from a re-analysis of the deposited data

How the results depend on the processing

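Of the 16 genes past the test, 0 changed direction in the 11 alternatives. The count of genes lower was 13 in the fit, 7 with scaling to pan-germ cell genes, 20 without the expression filter and 22 with the length and GC correction, and the count higher was 3 in the fit, 5 with library size scaling, 7 with pan-germ scaling and 0 with the length and GC correction. The median log2 fold change of all tested genes moved too, from 0.009 in the fit to 0.074 with library size scaling and 0.14 with pan-germ scaling. With the length and GC correction it was -0.073. How much of the change in these counts goes with this move of all genes was not tested. Leaving out each library in turn gave 9 to 21 lower and 0 to 6 higher; the arm left with 1 library is then assumed to vary like the other group. The count past a fold change of 2 was 0 in every alternative. With the replicate block the counts were 16 lower and 3 higher; libraries with the same number did not deviate together (correlation 0.06 across 20148 genes), so the numbers were not taken as pairs.

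Fold changes were followed over the alternatives for 27 of the 56 genes, and those that changed sign did not pass the test. *Eed* was 0.043 with library size scaling, 0.111 with pan-germ scaling and -0.106 to 0.044 with a library left out, and *Ezh2* 0.047, 0.115 and -0.161 to 0.103. *Kdm1a* was -0.0066 with RLE, -0.024 without the filter, -0.021 with DESeq2 and -0.079 with the length and GC correction, and -0.05 to 0.044 with a library left out. *Kdm5d* was 0.055 with pan-germ scaling and -0.175 to 0.0057 with a library left out, and *Kmt2c* -0.431 to 0.119 with a library left out. The median of the 17 demethylases was 0.055 with pan-germ scaling. With 2 libraries per group, the depth of 22192964 to 43378493 reads puts 3 reads at 0.071 to 0.132 CPM.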
